A study of Mus musculus with 12 samples.

Results

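Control cultures of mouse embryonic stem (ES) cells were compared between day 8 of differentiation and day 0, over all genes on the array. The comparison takes the 3 arrays titled control day8 against the 3 titled control day0, which are 6 of the 12 arrays of the series. Each gene was represented by the probe set with the highest mean over the 12 arrays, which gave 18193 genes.

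The cells were of the D3 line, an established mouse ES cell line. They had been grown on mouse embryonic fibroblasts treated with MMC, which serve as a feeder layer, and were differentiated as embryoid bodies, floating aggregates in which cell types of several germ layers form. Both control groups received no agent and carry no stated genetic change. The other 6 arrays were taken at day 8 from cultures with the agents labelled BPA or NP. They enter here the estimate of the spread, the choice of probe set, the background level and the signal cut for ranked genes. The labels do not say whether the feeder cells were removed before extraction, or whether the 3 arrays of a group came from separate cultures, so p-values measure the spread between these samples, which may be technical.

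ES cells keep their pluripotent state through a network of transcription factors around Pou5f1, Sox2 and Nanog. In embryoid bodies the outer cells form extraembryonic endoderm like that of the yolk sac, which secretes serum proteins and absorbs nutrients before the liver and gut exist. Inside, mesoderm gives rise to beating heart muscle, vessels and primitive blood. Growth also changes: stem cells divide fast and make ribosomes at a high rate, and differentiating cells slow both.

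Of the 18193 genes, 5856 passed the test (limma, adjusted p under 0.05), which is 32.2%. At day 8, 3409 genes were higher (18.7%) and 2447 lower (13.5%). Of these, 3091 (17.0% of all genes tested) changed by at least 2-fold, 2008 of them higher and 1083 lower. Changes of at least 16-fold in the fitted value were found for 179 genes called higher and 68 called lower. The 6 arrays did not overlap between the groups for 8091 genes (44.5%). Of the calls, 4131 were kept with each control array left out in turn. The plot of each gene's mean signal at day 0 and day 8 shows a wide cloud above the diagonal, made of genes near background at day 0.

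**Figure D1:**
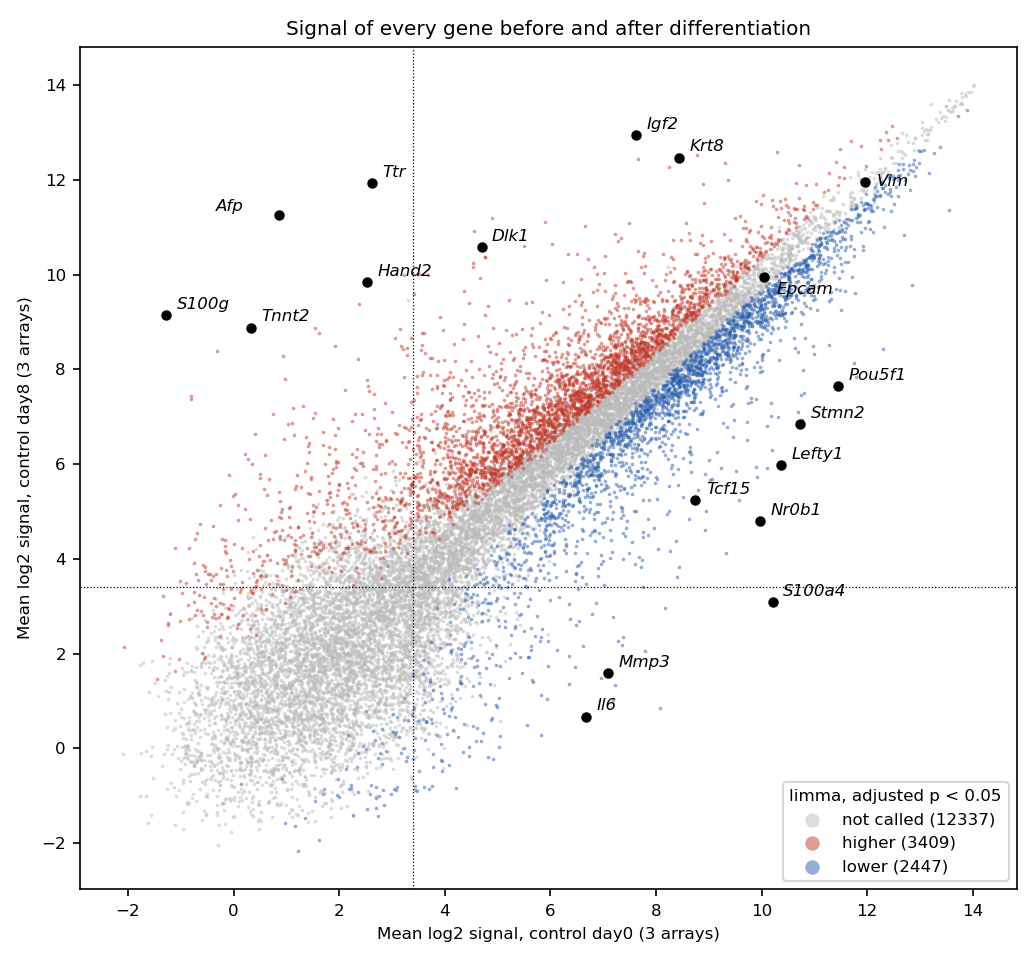
Mean log2 signal of each of 18193 genes on the 3 control day0 arrays (horizontal axis) and the 3 control day8 arrays (vertical axis), coloured by the limma call (3409 higher, 2447 lower), with dotted lines at the background level of 3.41. Afp and Ttr stand far above the diagonal, Il6 and S100a4 far below it, and Vim and Epcam on it.

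Signals are log2 values. A background level of 3.41 (a signal of 10.6) was the highest value, over all 12 arrays, of a bacterial RNA that is absent from mouse cells. Over the 6 control arrays alone the highest value was 2.89. Values under 3.41 have no order. For a group mean under it, the fold is given as "at least", with every value under the level set to it. From day 0 to day 8, 1225 genes went from a mean under this level to one above it, 911 went the other way, and 5000 were under it in both groups. Between 58.2% and 61.0% of probe sets were above it on the day 0 arrays and between 60.4% and 62.2% on the day 8 arrays. The 3′ to 5′ log2 ratio of Gapdh, a measure of RNA integrity, was 0.20 to 0.35 at day 0 and 0.23 to 0.31 at day 8. Correlations used 1 probe set per gene, for genes whose mean over the 12 arrays was above background. Arrays of the same group correlated with Pearson's r of 0.953 to 0.967, and arrays of different groups with 0.818 to 0.848. The median change of all genes was 0.10. Under both other scalings, quantile normalization and median centring, it was -0.01, and the share of calls that were higher went from 58.2% to 51.1% and 49.0%, so a small change is relative to the scaling. These are bulk samples, so fewer cells of a type and less RNA per cell cannot be told apart.

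The 15 genes with the largest fitted rises included genes of the yolk sac, the heart and embryonic blood. The fitted change of a gene under background at day 0 has no rank of its own, because such values have no order, and only its bound is measured. Apom, Rbp4 and Clic6, with fitted rises of 6.49 ± 0.50, 6.32 ± 0.29 and 6.32 ± 0.35, were outside the 15 although their rises exceed the bounds of several genes within. S100g, a calcium-binding protein of absorptive epithelia, was under background on every day 0 array and at 9.01, 8.19 and 10.25 on the day 8 arrays, at least 53.6-fold higher (limma, adjusted p = 2.01e-05). Hba-x, an alpha-like globin of primitive red cells, was at -1.13, -0.34 and -0.97 at day 0 and 7.59, 7.21 and 7.48 at day 8, at least 16.3-fold higher (adjusted p = 0.00503). For both genes all day 8 arrays were above all day 0 arrays, and the day 0 arrays were at background. Tmprss2, a membrane serine protease of epithelia, was at least 25.9-fold higher. Cited1, a transcriptional coactivator, was at least 37.7-fold higher. Igfbp1, a secreted binder of insulin-like growth factors, was at least 21.1-fold higher. The other 10 of the 15 are given with their tissues.

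The 15 largest fitted falls, ranked in the same way, included feeder, inflammatory and stem cell genes, and the bounds of some are smaller than the measured falls of Lefty1 (-4.40 ± 0.27) or Lox (-4.20 ± 0.44). S100a4, a calcium-binding protein of fibroblasts, was at 10.27, 10.55 and 9.81 at day 0 and 2.87, 3.81 and 2.60 at day 8, at least 102-fold lower (adjusted p = 0.000206). Tm4sf1, a tetraspanin-like surface protein, was at 7.90, 8.29 and 8.03 at day 0 and under background on every day 8 array, at least 25.4-fold lower. Both genes were well above background on every day 0 array. Il6, an inflammatory cytokine, was at least 9.62-fold lower. Mmp3, a stromal matrix protease, was at least 11.6-fold lower. Ereg, a ligand of the EGF receptor, was at least 11.7-fold lower. Gzme, a granzyme, was at least 5.32-fold lower. Ifi202b, an interferon-induced gene, was at least 13.2-fold lower. Pla2g1b, a secreted phospholipase, was at least 18.0-fold lower. The long noncoding RNA Platr10 was at least 13.7-fold lower. Nfix, a transcription factor of mesenchyme and muscle, was at least 14.3-fold lower. Serpinb2, a protease inhibitor, was at least 4.46-fold lower, but its call was lost with any 1 of 5 control arrays left out (adjusted p up to 0.125).

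The start regions of 4 genes from these groups are shown because they differ in base composition, for which they were picked. They are the 250 bases before the first listed start in RefSeq, assembly GRCm38.p6, on the gene's strand, with CG pairs in capitals. Hba-x, Tbx20 (a heart transcription factor) and S100a4 are among the 15 largest fitted rises or falls, and Ncl (nucleolin) is a growth gene that fell. They show no contrast between kinds of gene.
Hba-x: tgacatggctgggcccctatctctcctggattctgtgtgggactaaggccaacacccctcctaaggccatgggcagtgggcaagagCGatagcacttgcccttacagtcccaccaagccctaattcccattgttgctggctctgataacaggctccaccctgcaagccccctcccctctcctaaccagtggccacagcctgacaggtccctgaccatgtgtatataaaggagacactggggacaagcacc
S100a4: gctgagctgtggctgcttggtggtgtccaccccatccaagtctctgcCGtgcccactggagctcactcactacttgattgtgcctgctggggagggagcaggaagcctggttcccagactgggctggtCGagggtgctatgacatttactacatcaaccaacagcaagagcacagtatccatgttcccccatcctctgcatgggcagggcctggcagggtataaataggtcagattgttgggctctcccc
Tbx20: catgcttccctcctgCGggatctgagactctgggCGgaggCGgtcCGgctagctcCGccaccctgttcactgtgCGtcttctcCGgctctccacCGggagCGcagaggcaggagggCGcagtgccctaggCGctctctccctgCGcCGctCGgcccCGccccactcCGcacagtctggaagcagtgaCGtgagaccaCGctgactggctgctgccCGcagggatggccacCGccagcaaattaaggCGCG
Ncl: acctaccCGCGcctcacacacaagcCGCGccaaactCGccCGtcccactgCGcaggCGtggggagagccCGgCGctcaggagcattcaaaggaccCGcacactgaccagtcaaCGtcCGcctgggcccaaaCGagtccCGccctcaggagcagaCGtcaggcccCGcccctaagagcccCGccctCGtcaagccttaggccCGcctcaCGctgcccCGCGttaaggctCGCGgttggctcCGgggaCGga
The upstream window of Hba-x lies at chr11:32276350-32276599 and holds 1 CG pair. That of S100a4 lies at chr3:90603520-90603769 and holds 2. Each has TATAAA, the letters of the TATA box, with its first base 28 bases before the start in Hba-x and 31 bases in S100a4. The window of Tbx20 (chr9:24774304-24774553, minus strand) holds 22 CG pairs and that of Ncl (chr1:86359456-86359705, minus strand) holds 27, and neither has TATAAA on either strand. Over windows of 300 bases (250 before to 50 after the start), the ratio of observed to expected CG pairs had a median of 0.67 in 14452 genes tested with a promoter. The median was 0.60 in the 9742 of these not called, 0.59 in the 654 called higher by at least 4-fold and 0.44 in the 306 called lower by at least 4-fold. Genes called higher by at least 4-fold were thus near the genes not called. The median of all genes was above that of each of these sets, so genes called with smaller changes had a higher one. For changes of at least 16-fold, a cut chosen after the values were seen, it was 0.40 in 137 genes called higher and 0.32 in 45 called lower. TATAAA on either strand was in 9.87% of all the promoters, in 10.9% of those not called, in 10.7% of those called higher and in 13.4% of those called lower by at least 4-fold. AGATAA on either strand, letters bound by GATA factors, was in 8.13%, 9.14%, 8.26% and 7.19% in turn. At 16-fold TATAAA was in 13.1% of the 137 called higher and 22.2% of the 45 called lower (10 genes), and AGATAA in 13.9% and 6.67% (3 genes). These are matches of letters, not sites of binding, and no test was made.

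The pluripotency network fell. All 16 transcription factors of the naive state on the list were called lower, with a median change of -2.27, against a background of 13.5% of all genes. Their mean level per array was 9.55 to 9.67 at day 0 and 6.85 to 7.45 at day 8. Pou5f1, the central factor, was at 11.54, 11.48 and 11.32 at day 0 and 6.81, 7.63 and 8.49 at day 8, a log2 change of -3.80 ± 0.39 (SE; adjusted p = 0.000127). The day 8 arrays were all lower than the day 0 arrays, all above background, and spread more widely. Nr0b1, an orphan nuclear receptor of stem cells, was at 9.95, 10.14 and 9.84 and 3.65, 4.99 and 5.77, a change of -5.17 ± 0.43. Klf2, a Krüppel-like factor of the naive state, was at 10.81, 10.75 and 10.69 and 6.54, 7.80 and 8.02, a change of -3.29 ± 0.33. For these genes too the groups were apart by more than the spread within them. Sox2, which also acts in later progenitors, changed by -1.68 ± 0.15. Sall4, a zinc finger factor, changed by -0.88 ± 0.13. Zfp281, the smallest change of the list, was at -0.48 ± 0.12. Gbx2, at -3.11 ± 0.37, and Prdm14, at -1.88 ± 0.35, also act outside the stem cell, in brain and germ line.

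Of 17 other ES cell markers, 14 fell and 3 were not called. Dppa2, a chromatin protein of early embryos, was at 10.39, 10.23 and 9.68 at day 0 and 5.13, 6.08 and 6.54 at day 8, a change of -4.18 ± 0.35. L1td1, an RNA-binding protein of stem cells, changed by -3.87 ± 0.25. Fbxo15, an F-box protein of ES cells, changed by -3.60 ± 0.32. Dppa5a, another RNA-binding protein, changed by -2.17 ± 0.28 and kept a level of 10.72, 11.34 and 12.05 on the day 8 arrays. Lin28a, which blocks let-7 maturation and is also used by early progenitors, was at 9.03, 8.89 and 8.72 and 8.76, 8.76 and 8.62, not called at -0.17 ± 0.14. Sox15 was at -0.46 ± 0.26 and not called.

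The genes of the receptor arm that reads LIF, the cytokine that holds mouse ES cells in the naive state, changed by -0.65 to 0.79. Of 8 genes, 2 were called (25.0%, against 32.2% of all genes). Both were lower, as were 13.5% of all genes: the kinase genes Pim1 (-0.65 ± 0.12) and Pim3 (-0.62 ± 0.15). Lifr, the receptor, was at 9.03, 9.10 and 9.13 and 8.91, 9.00 and 8.48, which did not overlap, but its change of -0.29 ± 0.16 did not pass. Stat3, the transcription factor it activates, was at -0.47 ± 0.18 and not called. Socs3, a target and inhibitor of the pathway, was at -0.63 ± 0.32 and not called.

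Genes of the primed epiblast, the state that follows the naive one, had 9 of 13 members lower and 2 higher. The Nodal antagonists Lefty1 and Lefty2 fell most. Lefty1 was at 10.17, 10.07 and 10.86 at day 0 and 5.84, 5.94 and 6.13 at day 8, a change of -4.40 ± 0.27. Lefty2 changed by -4.33 ± 0.31. Zic5, a zinc finger factor, changed by -2.91 ± 0.25. Otx2, a homeobox factor of epiblast and head, was not called at 0.75 ± 0.26. The members that rose were Cldn6, a tight junction protein of embryonic epithelia (2.37 ± 0.23), and Sox4, a factor of many progenitors (1.21 ± 0.20). Of 18 genes of the primitive streak and the mesoderm that leaves it, 3 rose and 1 fell, and 5 rose without control day0 replicate 3. Most stayed low: Mesp1, the early factor of heart mesoderm, was at 4.28, 3.29 and 4.49 at day 0 and 3.86, 4.95 and 4.59 at day 8, and Mixl1 at 2.53, 4.04 and 3.61 and 3.74, 4.05 and 0.01. Neither was called. Evx1, a homeobox gene of the posterior streak, was at least 2.42-fold higher. Fgf17, an FGF ligand, changed by -2.26 ± 0.24. Germ cell and meiosis genes, several of which ES cells express, had 8 of 18 members lower and 0 higher by limma, also 0 at an unadjusted p under 0.05. Hsf2bp, a meiotic recombination factor, fell by most, at -3.83 ± 0.52. Mael, of the piRNA pathway, changed by -2.03 ± 0.25. Of genes that mark rare 2-cell-like ES cells, Usp17la, a ubiquitin protease gene of a multicopy family, was at least 5.62-fold lower.

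**Figure D2:**
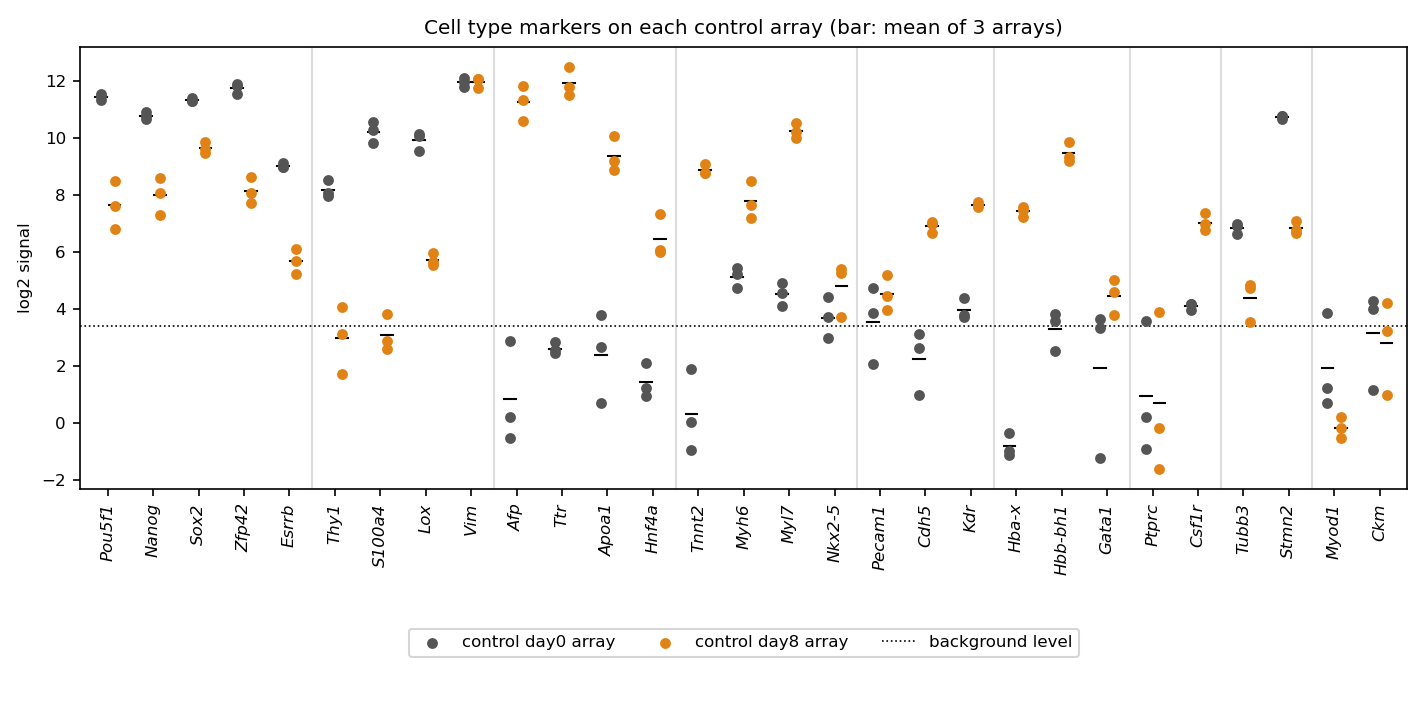
Log2 signal on each control array (day 0 grey, day 8 orange, black bars the mean of 3) for a selection of cell type markers. Blocks from left to right are ES cells, feeder fibroblasts, visceral endoderm, heart, endothelium, erythroid cells, leukocytes, neurons and skeletal muscle. Lox was added to the feeder block, and the feeder markers Postn, which rose, and Col1a1 and Col1a2, which were not called, are not shown. Trophoblast markers are not shown either. The ES cell block falls, the endoderm block rises from under the dotted background level, and Vim, Ptprc and Ckm show no separation.

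Extraembryonic endoderm genes rose. Of 14 transcription factors of visceral and primitive endoderm, 13 rose (18.7% of all genes did), with a median of 3.42, or 2.44 with genes at background set to their bound. Hnf4a, the nuclear receptor that drives endoderm secretion, was under background on all day 0 arrays and at 6.06, 5.99 and 7.32 on the day 8 arrays, at least 8.27-fold higher (adjusted p = 3.71e-05). Foxa2, a forkhead factor of endoderm, was at 3.83, 4.58 and 2.86 at day 0 and 7.76, 7.63 and 7.35 at day 8, a change of 3.82 ± 0.36. Foxa1 changed by 3.51 ± 0.39. The forkhead genes were near background at day 0 and clearly above it on each day 8 array. Nr2f1, an orphan nuclear receptor, changed by 3.71 ± 0.49. Gata5 was the member not called, at 0.68 ± 0.56.

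The secreted products rose further. Of 19 serum proteins and apolipoproteins of the yolk sac, 15 rose, with a median of 4.87 (3.98 with bounds). Afp, the fetal counterpart of albumin, was at 11.34, 10.61 and 11.82 on the day 8 arrays and under background on the day 0 arrays. Ttr, the carrier of thyroid hormone and retinol, was at 2.83, 2.44 and 2.57 at day 0 and 11.80, 11.49 and 12.48 at day 8. Alb, adult albumin, had both group means under background, at 2.86, -0.47 and 3.66 on the day 8 arrays. So had the hepatocyte protein Ahsg and the fibrinogen genes Fga and Fgg, while the third fibrinogen gene, Fgb, was at least 6.98-fold higher. On 1 of the 3 day 8 arrays Alb was above background, and it was not called. Apob, the scaffold of lipoproteins, was at least 79.6-fold higher, and Mttp, which loads it with lipid, changed by 3.98 ± 0.32. Apoa1 was at least 57.8-fold higher. Apom, at 6.49 ± 0.50, and Apoa2, at 4.87 ± 0.40, rose with it. Apoe, already at 8.84, 8.74 and 9.03 at day 0, rose by 1.97 ± 0.23. Rbp4, the retinol carrier, was at 4.61, 4.73 and 5.31 at day 0 and 11.23, 10.78 and 11.59 at day 8, a change of 6.32 ± 0.29.

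The absorptive machinery rose with them, in 17 of 20 members (median 3.13, 2.96 with bounds). Cubn (cubilin), an endocytic receptor, was at 4.98, 4.50 and 4.97 and 8.99, 9.09 and 9.94, a change of 4.53 ± 0.26. Amn (amnionless), its membrane partner, changed by 4.40 ± 0.37. Dab2, the adaptor that takes such receptors into coated pits, changed by 4.60 ± 0.22. The receptor and its partners were thus each higher on every day 8 array. Lrp2 (megalin), the second large receptor, changed by 1.56 ± 0.29. Slc2a2, a glucose transporter, was at least 9.19-fold higher. Slc39a8, a zinc transporter, changed by 3.77 ± 0.26. Clic6, a chloride channel protein, changed by 6.32 ± 0.35. Ezr, a microvillus protein that ES cells also make, was at -0.05 ± 0.13 and not called.

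Genes of the lysosome, to which absorbed cargo is sent, rose as well. Of 19 lysosomal genes, 15 rose and 0 fell by limma, 1 at an unadjusted p under 0.05 (13 to 15 rose with any 1 control array left out, and 8 with the mean of all probe sets of each gene), with a median of 0.96. Ctsh, a cathepsin, was at 3.89, 5.06 and 4.66 at day 0 and 10.04, 9.48 and 10.93 at day 8, a change of 5.61 ± 0.39. Ctsc, which activates other proteases, changed by 2.35 ± 0.30. Lgmn (legumain), an asparagine protease of the absorptive list and not of this one, changed by 3.12 ± 0.23. Lipa, which frees cholesterol from lipoproteins, changed by 1.58 ± 0.24, and Npc1, which exports that cholesterol, by 1.36 ± 0.11. Lamp2, a membrane protein of the lysosome, rose by 1.16 ± 0.19. Lamp1 was at 0.30 ± 0.17 and Ctsd at 0.05 ± 0.14, neither called. Within the lysosomal list the cathepsins Ctsh and Ctsc had the largest changes.

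Parietal endoderm, which lays down a thick basement membrane, had 7 of 12 members higher and 1 lower. Pth1r, the parathyroid hormone receptor, was at least 15.8-fold higher. Lama1, the laminin chain of embryonic basement membrane, was at 4.69, 5.03 and 5.47 and 8.25, 8.32 and 7.83, a change of 3.07 ± 0.36. Col4a1 changed by 2.61 ± 0.20 and Col4a2, its partner from the same locus, by 2.32 ± 0.21. Lamb1 rose by 1.33 ± 0.19, while the third chain of that laminin, Lamc1, was not called at 0.44 ± 0.29. Thbd, thrombomodulin, was called lower at -1.12 ± 0.30, a call lost without control day0 replicate 3, control day8 replicate 1, control day8 replicate 3 (adjusted p up to 0.0632).

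Genes of simple epithelium rose too. Of 19 keratin, claudin and tight junction genes, 15 rose and 1 fell (10 rose with only the 6 control arrays fitted). Krt8 and Krt18, which pair in the filaments of simple epithelia, moved alike. Krt8 was at 8.23, 8.11 and 8.96 and 12.39, 12.34 and 12.68, a change of 4.04 ± 0.26. Krt18 was at 7.33, 7.54 and 8.11 and 12.41, 12.35 and 12.56, a change of 4.78 ± 0.27. Krt19 changed by 5.29 ± 0.35 and Krt7 by 4.29 ± 0.32. Ocln (occludin) changed by 2.47 ± 0.17 and Cldn7 by 2.80 ± 0.26. By contrast the general epithelial genes did not rise. Epcam was at 10.00, 10.02 and 10.11 and 9.71, 9.83 and 10.32, not called at -0.09 ± 0.15. Cdh1 (E-cadherin) fell, from 11.13, 11.15 and 11.22 to 10.35, 10.46 and 10.19, a change of -0.83 ± 0.10. Cdh2 (N-cadherin) rose by 1.69 ± 0.29. Of 19 cadherins and factors of epithelial to mesenchymal transition, 11 rose and 1 fell (6 rose with the mean of all probe sets). They included Twist1 (3.52 ± 0.38) and Twist2 (1.89 ± 0.47) of mesenchyme, and also Esrp1 (0.76 ± 0.15), a splicing factor of epithelium. Genes of both epithelial and mesenchymal programs were therefore higher at day 8.

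Of 19 genes used for definitive endoderm, gut and liver, 14 rose. Most of them are also made by yolk sac endoderm, among them Spink1, a trypsin inhibitor (5.21 ± 0.39), and Cpm, a carboxypeptidase (4.30 ± 0.20). Hhex, a homeobox factor of liver and vessels, changed by 1.78 ± 0.23, and Sox9, a factor of ducts and cartilage, by 2.28 ± 0.40. Pdx1 of pancreas and Nkx2-1 of lung and thyroid were not called. Pdx1 was at 3.20, 2.88 and 2.26 at day 0 and 4.33, 3.55 and 0.54 at day 8, scattered about the background level with both means under it. Nkx2-1 was at 3.89, -0.18 and -0.16.

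Trophoblast genes also rose, in 11 of 16 members, with 0 lower by limma, also at an unadjusted p under 0.05. Rhox6 and Rhox9, neighbouring homeobox genes on the X chromosome, moved together. Rhox6 was at 3.15, 4.06 and 4.49 and 9.06, 8.82 and 9.42, a change of 5.20 ± 0.43. Rhox9 changed by 4.86 ± 0.40. Plac1, a placental surface protein, changed by 4.71 ± 0.48. Gata3 was at least 12.7-fold higher and Gata2 changed by 1.99 ± 0.27, factors that also act in other tissues. Elf5, a defining factor of trophoblast stem cells, had both group means under background (-0.23, -0.24 and 3.71 on the day 8 arrays). Tfap2c was at -0.06 ± 0.24 and Tead4 at -0.42 ± 0.38, neither called.

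Heart muscle genes rose by day 8. Of 21 cardiac transcription factors, 15 rose and 1 fell, and of 25 contractile proteins 19 rose and 0 fell by limma, 2 at an unadjusted p under 0.05. Hand2, of the right ventricle and outflow tract, was under background on all day 0 arrays and at 10.12, 9.88 and 9.53 on the day 8 arrays, at least 86.5-fold higher (adjusted p = 0.000131). Tbx20, a T-box factor of heart chambers, was at 9.17, 9.05 and 8.07, at least 38.6-fold higher. Isl1, which marks progenitors of the second heart field, was at 3.73, 3.50 and 3.47 and 8.54, 8.71 and 8.29, a change of 4.95 ± 0.48. These regulators were well above background on each day 8 array. Tbx2, which keeps the non-chamber myocardium, was at least 5.14-fold higher. Irx3 changed by 3.97 ± 0.43, Irx5 by 3.12 ± 0.41 and Mef2c, an activator of muscle genes, by 3.40 ± 0.59. Nkx2-5, a standard cardiac marker, was at 2.97, 4.41 and 3.70 at day 0 and 5.26, 5.41 and 3.71 at day 8, with overlapping groups, and was not called. Tbx5, of the first heart field, was at -0.42, 4.08 and 2.69 and 5.42, 5.84 and 3.82 and was not called either. Tbx3, which acts both in the conduction system and in ES cells, was the member that fell (-0.74 ± 0.17).

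Among contractile genes the troponins separated by paralog. Tnnt2, the cardiac troponin T, was at 8.79, 9.09 and 8.76 on the day 8 arrays, at least 44.4-fold higher than at day 0 (adjusted p = 0.000319). Tnni1, the slow troponin I that the embryonic heart uses, was at 8.72, 8.32 and 8.13, at least 31.6-fold higher. Tnnc1, the slow and cardiac troponin C, was at least 29.6-fold higher. Tnni3, the adult cardiac troponin I, had both group means under background, at -1.01, 2.50 and 2.44 on the day 8 arrays. The troponins raised were those of the embryonic heart. Myl7, the atrial light chain, was at 4.11, 4.91 and 4.58 and 10.19, 10.54 and 10.00, a change of 5.71 ± 0.90. Myl4, a light chain of embryonic muscle and atria, changed by 4.96 ± 0.47. Myl2, the ventricular light chain, changed by 1.48 ± 0.33 to 4.93, 5.20 and 4.77. Myh7, the slow myosin of the embryonic ventricle, was at least 33.9-fold higher, and Actc1, cardiac actin, changed by 5.62 ± 0.88. Ttn (titin), the spring of the sarcomere, was not called at 1.84 ± 0.80. Its day 8 arrays spread widely (6.72, 7.96 and 5.66). The genes of calcium handling, channels and hormones did not follow: 2 of 16 rose and 3 fell. Nppa, the atrial natriuretic peptide, was at 4.28, 3.30 and 2.79 and 3.08, 4.56 and 3.24, not called, and Pln (phospholamban) at 3.90, 3.19 and 3.11 and 4.91, 3.63 and 2.51, not called. Ryr2, the calcium release channel, was at least 3.03-fold higher.

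Other muscle lists were called less often than the contractile list (76.0%). Of 18 skeletal muscle genes 4 rose and 3 fell, and the 38.9% called were near the 32.2% of all genes. Myod1, Myog and Myf5, the determination factors, had both group means under background. Mymx, a micropeptide of myoblast fusion, was at 10.12, 10.38 and 9.52 at day 0 and 3.54, 5.04 and 5.71 at day 8, a change of -5.24 ± 0.48. Actn3, a fast fibre actinin, changed by -3.71 ± 0.33 from 7.48, 7.50 and 7.84. Mylpf, a fast light chain, changed by -2.51 ± 0.27. These 3 were above background on all day 0 arrays. Of 13 smooth muscle genes 2 rose. Acta2 was at 10.99, 11.27 and 11.25 and 11.87, 11.62 and 11.51, not called. Tagln was at 9.79, 10.02 and 10.02 and 9.52, 8.96 and 8.83, not called. Feeder fibroblasts also express Acta2 and Tagln, so a loss of feeder RNA and a rise in differentiated cells cannot be told apart here.

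Vessel genes rose as well. Of 23 endothelial genes, 15 rose and 0 fell by limma, also at an unadjusted p under 0.05. Kdr, the main receptor for VEGF, was at 3.80, 4.40 and 3.73 and 7.66, 7.74 and 7.57, a change of 3.68 ± 0.45. Flt1, which binds VEGF without strong signalling, changed by 1.87 ± 0.18, and Tek, the angiopoietin receptor, by 2.47 ± 0.20. Cdh5, the cadherin of endothelial junctions, was at 0.99, 2.62 and 3.14 and 6.99, 7.04 and 6.68, at least 11.3-fold higher. Erg, a factor of endothelial identity, was at least 3.30-fold higher, Sox18 at least 5.60-fold higher and Fli1 changed by 2.04 ± 0.50. Receptors, junction genes and factors thus all included members that rose. Ednrb, an endothelin receptor of vessels and neural crest, was at least 13.7-fold higher. Pecam1, which ES cells also express, was at 2.07, 3.86 and 4.73 and 3.96, 5.21 and 4.47 and was not called. Vwf and Robo4, of more mature vessels, had both group means under background.

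Embryonic globin genes rose, at levels that varied between the day 8 arrays. Of 15 erythroid genes 5 rose and 1 fell (8 rose with a pseudocount of 16). Hbb-y, a beta-like embryonic globin, was at 7.47, 5.84 and 8.81 on the day 8 arrays, at least 15.6-fold higher than at day 0 (adjusted p = 0.000369). Its lowest and highest day 8 arrays differed widely. Among genes with a day 8 mean of at least 5.20 and no day 8 array under background, its SD (1.49) was second-largest. Hbb-bh1 was at 3.57, 2.52 and 3.82 and 9.87, 9.19 and 9.32, with no overlap, but did not pass over all genes (adjusted p = 0.0526). Hba-a1, an adult globin, had both group means under background. Lmo2, a bridge protein of blood and vessel factors, changed by 3.32 ± 0.44, and Nfe2 was at least 1.33-fold higher. Of 14 progenitor and leukocyte genes 4 rose and 2 fell, and 1 rose without control day8 replicate 2. Csf1r, the macrophage receptor, was at 4.16, 4.18 and 3.98 and 6.76, 6.97 and 7.36, a change of 2.93 ± 0.29. Ptprc, the leukocyte surface protein CD45, had both group means under background, and Laptm5, a lysosomal protein of leukocytes, fell by 2.58 ± 0.31 on the log2 scale.

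Neural and ectodermal genes did not rise as groups. Of 22 neural genes 2 rose and 4 fell (27.3% called, against 32.2% of all genes). Stmn2, a tubulin regulator of neurons, was at 10.78, 10.65 and 10.77 at day 0 and 6.68, 6.77 and 7.09 at day 8, a change of -3.88 ± 0.23. Tubb3, neuronal tubulin, was at 6.98, 6.92 and 6.62 and 4.83, 4.75 and 3.55, a change of -2.47 ± 0.35. Both were higher on every day 0 array than on any day 8 array. Sox1, of the neural plate, was not called at 0.31 ± 0.39, nor Nes at -0.33 ± 0.24. Msi1, an RNA-binding protein of progenitors, rose by 1.44 ± 0.28. Of 12 genes of surface ectoderm 1 rose and 1 fell. Of 16 genes of paraxial and intermediate mesoderm 5 rose and 2 fell (8 rose with a pseudocount of 16). Prrx2, of limb and craniofacial mesenchyme, rose by 1.76 ± 0.34. Tcf15 (paraxis), named for somites but also made by ES cells, fell from 8.70, 8.73 and 8.81 to 5.14, 5.26 and 5.34, a change of -3.50 ± 0.27.

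Hox genes, which set position along the body axis, were mostly low and not called. In clusters A and C, 0 of 9 and 0 of 7 were called by limma, also at an unadjusted p under 0.05. In cluster B 3 of 9 rose, and in cluster D 1 of 8. The 3 calls of cluster B were Hoxb2, Hoxb5 and Hoxb7, and all were lost without control day8 replicate 3, where 0 rose by limma and 4 at an unadjusted p under 0.05. Hoxb2 was at 4.73, 5.66 and 5.60 and 7.05, 6.35 and 6.95 (adjusted p = 0.0168, and up to 0.0595 with an array left out). The cofactors that pair with Hox and heart factors were called in 4 of 5 cases. Meis2 was at 5.15, 5.73 and 5.99 and 8.95, 8.85 and 8.36, a change of 3.10 ± 0.30. Meis1 was at least 7.40-fold higher, Pbx2 changed by 1.57 ± 0.15 and Pbx3 by 1.43 ± 0.22.

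In the TGF-beta superfamily 16 of 32 rose and 7 fell. Members of both directions are described by branch, a division made by role and not a list of its own. Nodal, the ligand, was at 8.50, 8.47 and 8.96 and 5.72, 6.60 and 6.78, a change of -2.28 ± 0.31. Tdgf1, its coreceptor, changed by -3.95 ± 0.32, and the activin subunit gene Inhbb by -3.90 ± 0.32. The other subunit gene, Inhba, which fibroblasts also make, changed by -3.99 ± 0.67. Among the BMP ligands Bmp2 was at 2.75, 3.87 and 4.18 and 8.82, 8.75 and 8.75, a change of 5.17 ± 0.38. Bmp4 was at 7.00, 7.03 and 6.61 and 9.44, 9.25 and 9.34, a change of 2.46 ± 0.20. Bmp5 changed by 3.76 ± 0.56 and Bmp7 by 2.19 ± 0.40. The receptor gene Bmpr2 rose by 1.16 ± 0.18. Of the direct targets and feedback inhibitors, Id2 rose by 2.25 ± 0.24, Id1 by 1.46 ± 0.24, Smad6 by 3.17 ± 0.39 and Bambi by 2.60 ± 0.25, while Id3 (0.54 ± 0.23) and Smad7 (-0.25 ± 0.17) were not called.

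Of 21 FGF ligands, receptors and feedback genes 4 rose and 8 fell (5 fell with the mean of all probe sets). Fgf4, the ligand that ES cells make, was at 9.03, 8.99 and 9.15 and 4.61, 5.84 and 6.61, a change of -3.37 ± 0.40. The targets Etv4 and Etv5 fell with it, Etv4 by at least 9.32-fold and Etv5 by 1.75 ± 0.15 on the log2 scale. Spry4, a feedback inhibitor, changed by -2.12 ± 0.30. Dusp6, another, was not called at 0.24 ± 0.22, nor was Spry2 at -0.30 ± 0.20, and Spry1 rose by 1.50 ± 0.21. The feedback genes did not move as one. The receptors Fgfr2 (1.86 ± 0.25) and Fgfr3 (2.92 ± 0.36) rose, and Fgfr1 was not called at 0.46 ± 0.19.

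Of 35 Wnt genes 19 rose and 3 fell, and 12 rose when only the 6 control arrays were fitted. Secreted inhibitors were among the largest rises. Dkk1 was at 3.19, 4.39 and 4.39 and 8.42, 8.52 and 7.67, a change of 4.22 ± 0.38. Frzb was at 4.30, 3.25 and 3.61 and 8.39, 8.38 and 7.98, a change of 4.53 ± 0.25. Sfrp5 changed by 1.89 ± 0.45 and Sfrp1 by 1.12 ± 0.22. Among receptors Fzd1 (2.75 ± 0.40), Fzd2 (2.01 ± 0.22) and Fzd4 (2.33 ± 0.29) rose and Fzd5 (-1.79 ± 0.15) fell. The pathway's general target Axin2 was not called, at 5.46, 5.56 and 6.03 and 6.34, 6.72 and 5.43. Of 21 Notch genes 7 rose (4 after quantile normalization) and 2 fell. Dlk1, a noncanonical ligand, accounted for the largest rise, from 4.21, 4.34 and 5.54 to 10.96, 10.41 and 10.40. The canonical ligands Dll1 (-0.67 ± 0.25) and Jag1 (-0.38 ± 0.28) and the target Hes1 (-0.18 ± 0.22) were not called. Of 12 Hedgehog genes 7 rose and 2 fell (2 rose with the mean of all probe sets). Ihh, the ligand that yolk sac endoderm makes, was at least 2.68-fold higher, and Gas1, a coreceptor, changed by 3.01 ± 0.39. Ptch1, receptor and target, was not called at 0.44 ± 0.18. Of 17 retinoid genes 6 rose and 2 fell. Rarb, a receptor that is itself a target of retinoic acid, was at least 8.99-fold higher, and Cyp26a1, the enzyme that degrades retinoic acid, was at least 21.9-fold higher. Crabp2, a cytosolic carrier, changed by 2.91 ± 0.38. Rarg fell by 1.52 ± 0.23 on the log2 scale.

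Genes of the feeder layer and of fibroblasts fell and rose in separate groups. Of 25, 11 fell and 7 rose, and their mean per array was 8.11 to 8.32 at day 0 and 6.59 to 6.87 at day 8. Thy1, a surface glycoprotein of the feeder cells, was at 8.06, 8.51 and 7.98 at day 0 and 3.11, 1.73 and 4.06 at day 8, at least 23.5-fold lower. Lox, which crosslinks collagen, was at 10.06, 10.15 and 9.55 and 5.95, 5.66 and 5.55, a change of -4.20 ± 0.44. Mgp, a matrix Gla protein, changed by -5.22 ± 0.49, and Ccl2, a chemokine, by -4.78 ± 1.12. Cav1, of caveolae, changed by -2.57 ± 0.28. Thy1 and S100a4 were thus near or under background at day 8, whereas other mesenchymal genes were not lost. Vim was at 11.78, 12.10 and 11.97 and 12.07, 12.05 and 11.76, not called. Postn, a matricellular protein, rose from 8.58, 8.81 and 8.31 to 11.44, 10.75 and 11.05, a change of 2.51 ± 0.33. Pdgfra, a receptor of mesoderm and primitive endoderm, was at 5.81, 6.31 and 5.39 and 9.29, 9.30 and 9.07, a change of 3.38 ± 0.22. Lum changed by 2.94 ± 0.31 and Tgfbi by 3.60 ± 0.46. For genes that feeder cells, ES cells and new mesenchyme all express, these sources cannot be told apart.

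Collagens followed both patterns: 7 of 19 rose and 4 fell, and without control day8 replicate 1 only 4 rose, while with a pseudocount of 16, 8 fell. Col9a1, a cartilage and embryonic epithelium collagen, was at 3.63, 4.02 and 3.09 and 8.05, 8.06 and 7.71, a change of 4.36 ± 0.75. Col2a1 changed by 2.53 ± 0.47. Col12a1, of dense connective tissue, was at 7.63, 8.06 and 6.79 and 4.43, 4.54 and 3.42, a change of -3.37 ± 0.68. Col8a1 changed by -3.36 ± 0.22 and Col6a3 by -2.38 ± 0.25. The fibrillar genes Col1a1 (0.50 ± 0.36) and Col1a2 (-0.73 ± 0.27) were not called. Of 28 laminin, integrin and basement membrane genes 11 rose and 0 fell by limma, 1 at an unadjusted p under 0.05. Itga8 rose by 2.71 ± 0.24, and Itgb1, the common beta chain, was not called at 0.32 ± 0.11.

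Imprinted genes, expressed from 1 parental copy and many of them growth regulators of the embryo, mostly rose where they passed the test. Of 17 paternally expressed genes 11 rose and 2 fell, with a median of 2.27. Of 17 maternally expressed genes 6 rose and 0 fell by limma, also at an unadjusted p under 0.05, with a median of 0.59. The difference between these shares was not tested. Igf2, the fetal growth factor, was at 7.24, 7.51 and 8.13 and 13.06, 12.81 and 12.95, a change of 5.32 ± 0.36. Igf2r, which clears it and is expressed from the maternal copy, was at 7.85, 7.59 and 7.88 and 10.76, 10.59 and 9.99, a change of 2.68 ± 0.28. Ligand and scavenger receptor both rose. Plagl1, a zinc finger factor, changed by 4.03 ± 0.25, Peg3 by 3.74 ± 0.31 and Mest, a hydrolase of mesoderm, by 2.64 ± 0.34. Cdkn1c, a maternally expressed inhibitor of the cell cycle, changed by 3.43 ± 0.34. Asb4, an adaptor of protein degradation in vessels and placenta, was at least 25.9-fold higher. Meg3, the noncoding RNA of the Dlk1 locus, was not called at 0.66 ± 0.24, while Dlk1 changed by 5.89 ± 0.47. Neither were Phlda2 (0.35 ± 0.18) and Grb10 (0.33 ± 0.19), so genes of the same kind did not all move.

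Of 9 DNA methylation and TET genes 5 fell and 0 rose by limma, 2 at an unadjusted p under 0.05. Dnmt3b, a de novo methyltransferase, was at 10.78, 11.03 and 10.95 and 9.26, 9.19 and 9.47, a change of -1.62 ± 0.15. Dnmt3l, its catalytically inactive partner, changed by -2.46 ± 0.40. The maintenance enzyme Dnmt1 (0.15 ± 0.16) was not called. Nor was the probe set that stands for Dnmt3a (0.74 ± 0.26), but of its 5 probe sets another fell (-1.06 ± 0.25) and a different one rose (0.77 ± 0.13), all above background, so the direction of Dnmt3a is unsettled. Tet2, which oxidises methylcytosine, changed by -1.59 ± 0.17. Of 24 Polycomb genes 9 fell and 7 rose, and 4 rose without control day8 replicate 3 or after median centring. In the second Polycomb complex, Jarid2 (-1.54 ± 0.14), Mtf2 (-1.22 ± 0.13) and the core subunit Eed (-1.45 ± 0.13) fell, Ezh2 fell by 0.51 ± 0.10 on the log2 scale and Suz12 was not called at -0.33 ± 0.15. In the first complex, paralogs moved apart: Phc1 was at 10.93, 10.99 and 11.01 and 8.38, 8.53 and 8.59, a change of -2.47 ± 0.13, and Phc2 at 6.68, 6.97 and 7.68 and 9.29, 9.32 and 9.08, a change of 2.12 ± 0.24. Pcgf6 fell (-0.68 ± 0.14), while Pcgf5 (2.14 ± 0.20) and Bmi1, also named Pcgf4, rose (1.72 ± 0.12). Among 21 SWI/SNF remodelling subunits 6 rose and 3 fell, and 3 rose without any 1 of control day0 replicate 1 or 2 or a control day8 replicate. After median centring 2 rose and 3 fell, and after quantile normalization 3 and 3, so that rises did not outnumber falls under either scaling. Smarca2, one of the alternative ATPases, was at 4.23, 4.06 and 4.14 and 6.83, 6.56 and 6.88, a change of 2.61 ± 0.12. The other ATPase, Smarca4, was not called at 0.03 ± 0.16. Smarcd3, a heart subunit, rose by 1.88 ± 0.47, and Actl6a, a progenitor subunit, fell by 0.98 ± 0.10 on the log2 scale. Macroh2a1 (1.10 ± 0.22) and Macroh2a2 (1.53 ± 0.31), histone variants of silent chromatin, rose.

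The plot of 4 machinery lists shows 2 lists in which every call was lower and 2 in which every call was higher. All 22 genes of ribosome biogenesis and RNA polymerase I fell (21 or 22 with any 1 control array left out), with a median of -1.14, -1.19 after quantile normalization and -1.25 after median centring. Ncl (nucleolin), which organises ribosomal RNA, was at 13.18, 13.16 and 13.14 and 12.04, 12.10 and 12.27, a change of -1.02 ± 0.11. Its upstream window is the most CG-rich of the 4 sequences printed. Rrn3, which brings RNA polymerase I to its promoter, changed by -1.34 ± 0.11. Polr1b, the second-largest subunit of that polymerase, changed by -1.47 ± 0.14, and Dkc1, which modifies ribosomal RNA, by -1.44 ± 0.12. Ddx21, a helicase, was at 10.10, 10.22 and 10.19 and 8.77, 8.87 and 8.11, a change of -1.59 ± 0.22. No day 8 array reached a day 0 array for Ncl and Ddx21. The ribosomal proteins did not share this: 3 of 18 fell, and 0 by limma without any 1 of the control day0 replicates, 3 at an unadjusted p under 0.05. The changes of Rps3 (-0.01 ± 0.11) and Rpl11 (-0.03 ± 0.09) were not called. Rps3 was at 12.83, 12.87 and 13.00 on the day 0 arrays, near the top of the scale.

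**Figure D3:**
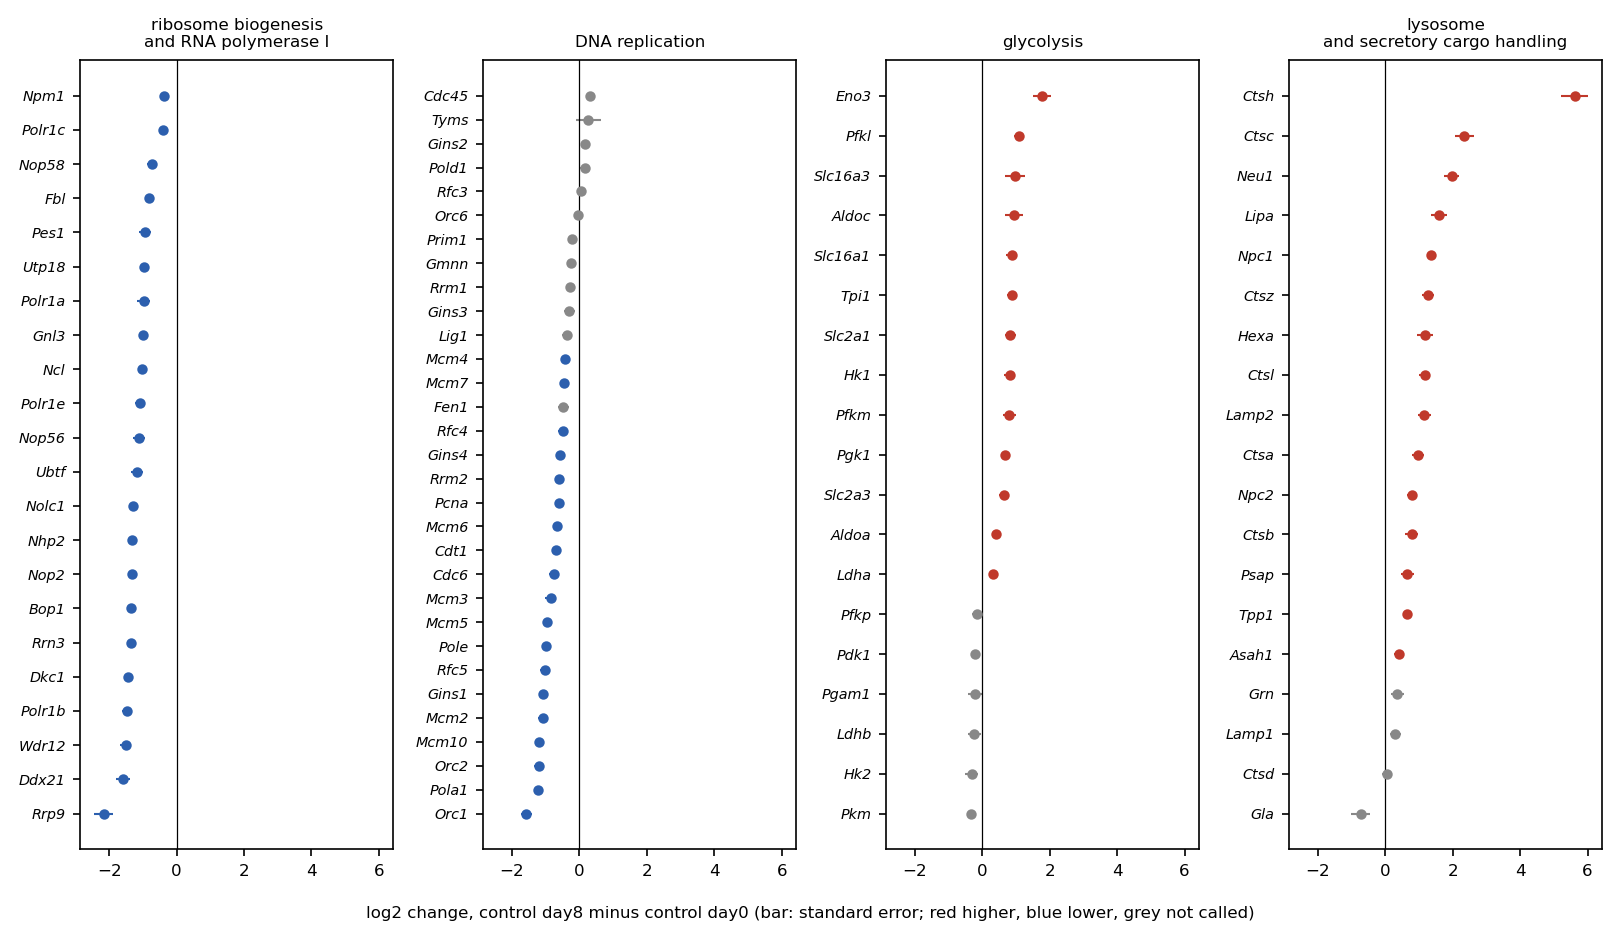
Log2 change from control day0 to control day8 (horizontal axis, bars the standard error of the limma fit over 12 arrays) for each gene of 4 lists: ribosome biogenesis, DNA replication, glycolysis and lysosome. Genes called lower are blue, higher red and not called grey: 22 of 22 ribosome biogenesis genes lie left of 0, and 15 of 19 lysosomal genes are called to the right of it.

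DNA replication genes fell in 19 of 31 cases and 0 rose by limma, 1 at an unadjusted p under 0.05, with a median of -0.59. Orc1, of the origin recognition complex, was at 8.74, 8.80 and 8.61 and 7.04, 7.08 and 7.31, a change of -1.58 ± 0.16. Mcm2 changed by -1.07 ± 0.15 and Mcm5 by -0.97 ± 0.10, subunits of the replicative helicase. Pole, of the leading strand polymerase, changed by -0.99 ± 0.13. The mitotic genes Cdk1 and Ccnb2 did not follow, and no list of mitotic genes was made. Cdk1 was at 10.44, 10.30 and 10.34 and 10.45, 10.10 and 10.46, a change of -0.03 ± 0.12, and Ccnb2 was at -0.02 ± 0.11, neither called. Of 32 cyclins, kinases, inhibitors and E2F genes 7 rose (4 with the mean of all probe sets) and 5 fell. The 37.5% called were near the 32.2% of all genes. All 32 are among the brightest 60% of probe sets, where 48.7% of genes were called. With that filter 7 of them rose and 6 fell. Ccne1, which drives entry into S phase, fell from 9.94, 9.98 and 9.76 to 7.12, 7.45 and 7.53. Ccnd1 fell by 1.93 ± 0.17 on the log2 scale. The inhibitors Cdkn1b (1.22 ± 0.17) and Cdkn2c (0.88 ± 0.17) rose, and Cdkn1a, the p53 target, was not called at -0.02 ± 0.12. Mycn, the Myc form of ES cells, changed by -1.19 ± 0.16, and Myc was not called at -0.05 ± 0.24.

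Metabolic lists differed in direction: most calls were higher for glycolysis and lower for amino acid and one-carbon genes. Of 19 glycolysis genes 13 rose and 0 fell by limma, 1 at an unadjusted p under 0.05 (8 rose after median centring, and 8 with the mean of all probe sets), with a median of 0.68. Tpi1 changed by 0.87 ± 0.14 and Pgk1 by 0.68 ± 0.13. Slc2a1, the glucose transporter, was at 11.61, 11.83 and 12.23 and 12.71, 12.75 and 12.70, a change of 0.83 ± 0.15. Pkm, the pyruvate kinase gene, was not called at -0.34 ± 0.12, nor Hk2 at -0.32 ± 0.20. Of 34 oxidative phosphorylation genes 10 fell and 0 rose by limma, also at an unadjusted p under 0.05, and 6 fell without control day8 replicate 1 or 2 and 4 with only the 6 control arrays fitted. Ndufs1, of complex I, changed by -0.71 ± 0.10, while the median of the list was -0.15. After quantile normalization 6 of the list fell and 1 rose, with a median of -0.02, so its shift is relative to the scaling. Of 20 amino acid and one-carbon genes 12 fell and 1 rose, with a median of -0.91. Slc7a3, a transporter of basic amino acids, was at 10.14, 10.33 and 10.06 and 7.31, 7.18 and 7.42, a change of -2.88 ± 0.23. Shmt1 (-1.59 ± 0.16) and Mthfd1 (-1.22 ± 0.17), of the folate cycle, fell. Psat1, of serine synthesis, fell by 1.16 ± 0.17 on the log2 scale. Slc38a4, an imprinted amino acid transporter, was the member that rose (1.66 ± 0.16). Cholesterol and fatty acid synthesis had 3 of 20 members lower (6 with a pseudocount of 64), and Hmgcs1 was not called at 0.23 ± 0.18.

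Of 25 glutathione and NRF2 target genes 9 fell and 4 rose (2 rose without any 1 of the day 0 arrays). The share called was 52.0%, against 32.2% of all genes and 48.7% of genes in the brightest 60% of probe sets, which hold 24 of the 25. Gsta4 was at 11.54, 11.53 and 11.44 and 9.02, 9.18 and 9.59. Nqo1, a quinone reductase and standard NRF2 target, was at 7.29, 7.54 and 6.92 and 5.86, 5.53 and 5.37, a change of -1.66 ± 0.18. Gclm (-1.12 ± 0.16) and Txnrd1 (-1.09 ± 0.10) fell as well. Gpx3, a secreted peroxidase, rose by 3.16 ± 0.15. Nfe2l2, which encodes NRF2, was not called at -0.25 ± 0.15. Of 23 interferon and antigen presentation genes 6 fell and 2 rose. The 34.8% called were near the 32.2% of all genes, and all 23 are in the brightest 60%. Ifitm3, a membrane protein that ES cells and feeder cells make, changed by -2.17 ± 0.16. H2-K1 and B2m, the chains of MHC class I, were not called, at 0.28 ± 0.15 and 0.12 ± 0.14. Of 18 p53 and apoptosis genes 4 rose (2 with the mean of all probe sets) and 5 fell (3 without control day0 replicate 2, where 4 rose). Bcl2, a survival gene, was at least 5.72-fold higher, and Pmaip1 (Noxa), which favours death, changed by -1.32 ± 0.19. The feeder list fell over the same days, from 8.11 to 8.32 down to 6.59 to 6.87 per array, and its part in these falls was not tested.

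**Figure D4:**
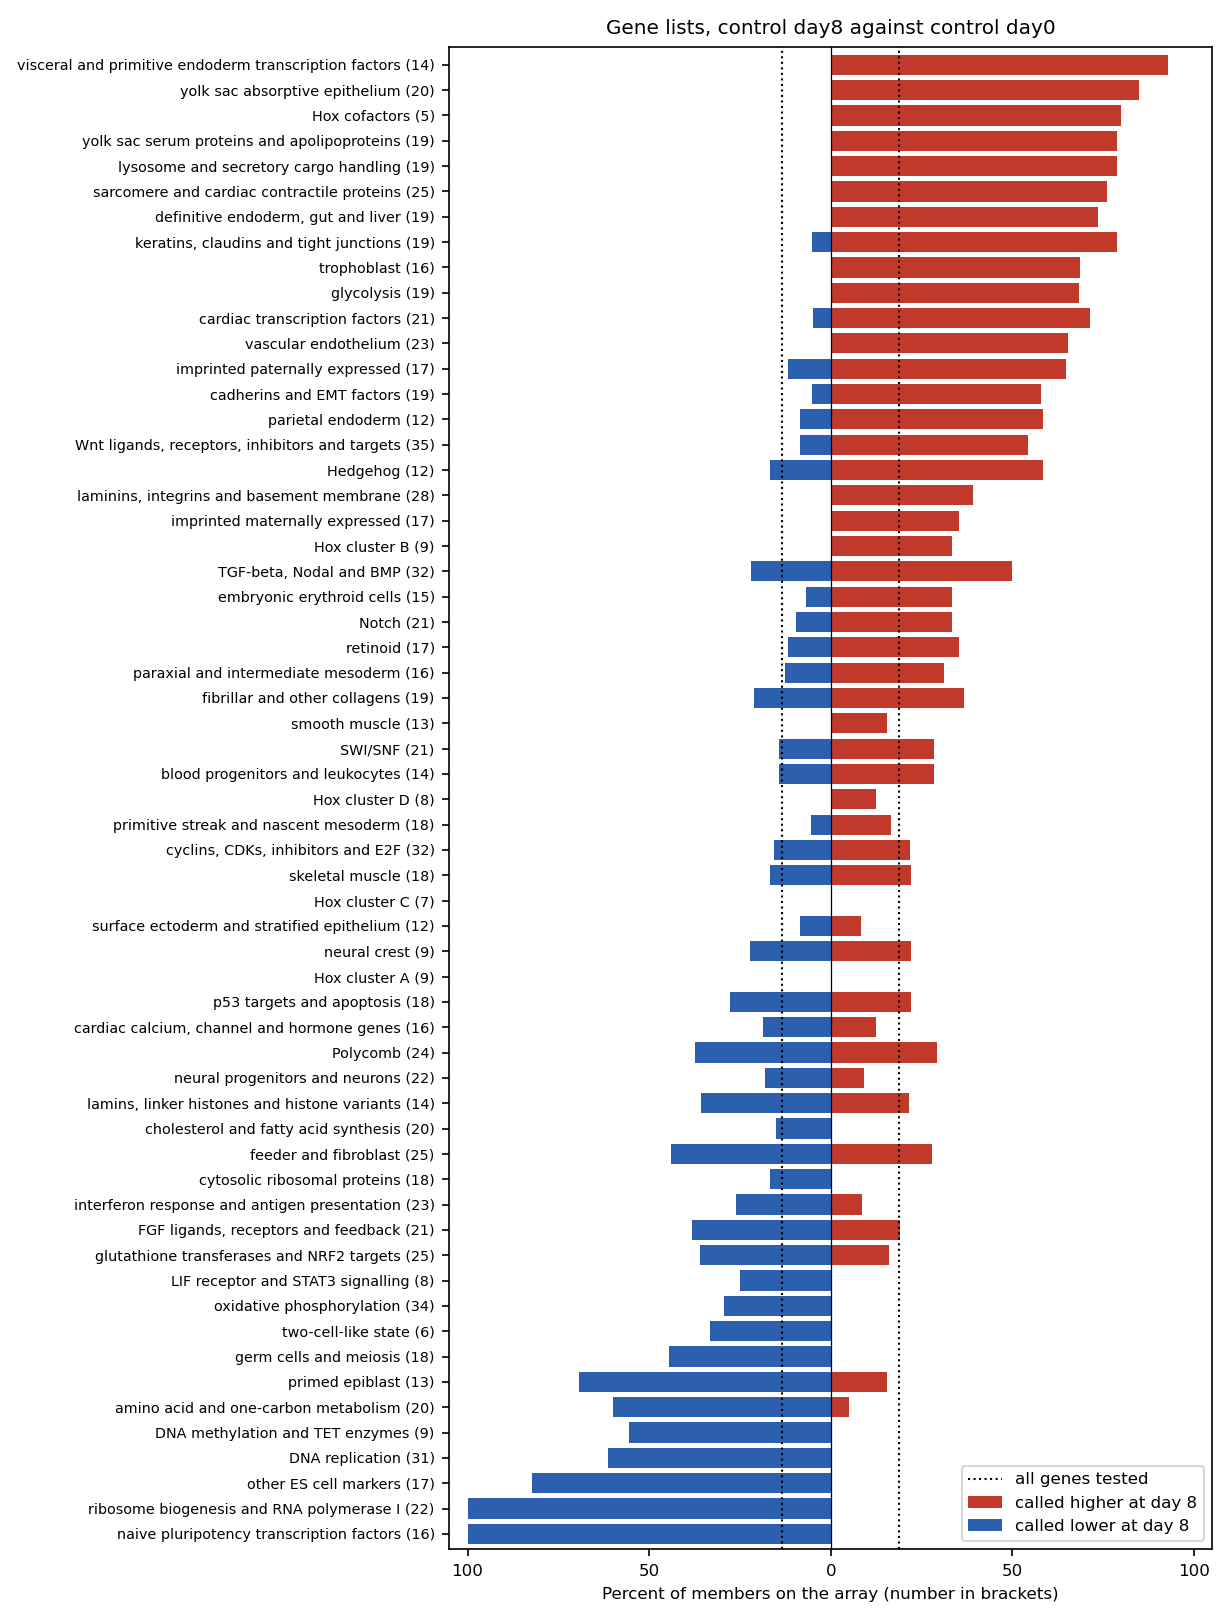
Percent of the members on the array (number in brackets) called higher (red, right) or lower (blue, left) at day 8 for 59 gene lists, ordered by that balance. Dotted lines mark all genes tested, 18.7% higher and 13.5% lower: endoderm lists stand at the top, and ribosome biogenesis and naive pluripotency factors at the bottom with all members lower.

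The arrays of a group varied by similar amounts at both times. For genes with both means above background the median SD was 0.18 at day 0 and 0.19 at day 8. Genes called lower varied more at day 8 than at day 0 (median SD 0.12 at day 0 and 0.16 at day 8, larger at day 8 for 65.8% of them). Genes called higher had a median SD of 0.21 at day 0 and 0.18 at day 8, larger at day 8 for 42.0%. Over all genes, dim ones included, the median SD was 0.33 at both times. In each called set the larger SD was thus on the day of lower signal, and signal level and day cannot be told apart here. Day 8 replicate 3 stood apart from the other day 8 arrays in some lists and not in others. The mean of the yolk sac absorptive list was 8.54, 8.29 and 9.38 on the day 8 arrays, and that of the serum protein list was 7.04, 6.78 and 8.03. The mean of the cardiac transcription factor list was 7.08, 7.17 and 6.60, and that of the endothelial list was 6.16, 6.28 and 5.85. All 3 were above every day 0 array in each of these lists. Replicate 3 thus had the highest means of both endoderm product lists and the lowest of these heart and vessel lists. The other endoderm lists did not share this: the visceral and primitive endoderm factors were at 6.76, 6.73 and 6.69, the parietal list at 8.63, 8.60 and 8.39, and the definitive endoderm list at 7.24, 6.69 and 6.71. Day 8 SDs were ranked among genes with a day 8 mean of at least 5.20 and no day 8 array under background. The largest were those of Rpl39 (1.61), Hbb-y (1.49), the phospholipase gene Pla1a (1.24), Rpl39l (1.17) and Ttn (1.15). Rpl39, a ribosomal protein gene with many processed copies, was at 3.96, 6.91 and 6.53 on the day 8 arrays, and its values are uncertain because such copies can share its probes.

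Probe sets of the same gene were seldom called in opposite directions. Of 9010 genes with more than 1 probe set, 79 (0.877%) had 1 called higher and another called lower, and 22 did when only the 6 control arrays were fitted. Left out in turn, the control arrays gave 28 to 57 such genes, the lowest without control day0 replicate 2. Of the 79, 68 had both probe sets above background in at least 1 group. Gnas, which encodes the alpha subunit of stimulatory G protein, was among the other 11: one of its probe sets rose from under background to 5.58, and the one called lower had both means under background, so no fall was measured. Malat1, a nuclear noncoding RNA chosen after its values were seen, was above background in both probe sets. One probe set changed by 2.49 ± 0.53 and another by -0.98 ± 0.24. Zmynd8, a chromatin reader chosen in the same way, had changes of 1.16 ± 0.13 and -1.53 ± 0.25. Which part of the transcript each probe set reads was not analysed here.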

How the data were processed

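Total RNA was measured on Affymetrix arrays. The authors deposited log2 signals for each probe set, computed with MAS5, per the submitters' processing notes; its version, the scaling target and the genome build are not given in the sources used here. The trimmed mean signal (without the top and bottom 2%) was 100.0 on every array, so arrays had been scaled to each other. The number of arrays, 3 per group, limits the precision.

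Probe sets with 1 gene in the platform annotation (34958 of 45101; 932 had several and 9211 were not listed) were used with the file's symbols, 34754 of them matched to RefSeq by Entrez identifier, and 34945 were tested. The probe set with the highest mean over the 12 arrays stood for each of 18193 genes, with no filter, pseudocount or further scaling. The model, from limma 3.58.1 (R 4.3.3), held 1 mean for each of the 4 groups of all 12 arrays (8 residual and 1.13 prior degrees of freedom), 2-sided, with Benjamini-Hochberg adjustment over all genes and a threshold of 0.05. Each p in the text adjusted in this way is limma's, and errors of changes are standard errors of that fit. The background level of 3.41 came from 36 values of the TrpnX control probe sets.

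Gene lists (59, with 994 of 1082 genes on the array) are described by counts and medians, with no set test. The members and lists were chosen with earlier results of these data known. Named genes were the 15 largest rises and falls among genes called whose arrays did not overlap and whose higher mean reached the median gene mean of 5.20, list members by size of change, direction or role, cell type markers, and the genes with the largest spread or opposite probe sets. The test was tried on simulated data of 18193 genes, 100 of them moved by a log2 step of 1 and 100 by 2. It found 32% and 50% of these and called 1 unshifted gene. No other gene was moved there, while 32.2% of genes were called in the data. The adjusted threshold depends on that share, so these rates do not give the sensitivity of the comparison. Alternatives were a filter, pseudocounts of 16 and 64, quantile normalization, median centring, the mean of all probe sets, other variance priors, array weights, only control arrays, a replicate block, another background level and each control array left out. Plots were made with matplotlib 3.10.9 (Python 3.11.15).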

Additional observations from a re-analysis of the deposited data

How the results depend on the processing

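Of the 248 genes named and called, 243 kept their call with each control array left out in turn, and 225 kept it in every alternative as well. No named gene that was called changed sign in these settings. The mean of all probe sets of a gene ended 17 of these calls, the fit of only the 6 control arrays ended 9, a pseudocount of 64 and the replicate block ended 2 each, and quantile normalization, median centring and an intensity trend 1 each. With the mean of all probe sets 3680 genes passed in place of 5856, 2116 higher and 1564 lower. With only the 6 control arrays fitted 4225 passed, 2441 higher and 1784 lower. A pseudocount of 64 left 1105 genes changed by at least 2-fold in place of 3091, because it shrinks the changes of dim genes. With a control array left out, 4793 to 5374 genes passed, 2752 to 3216 higher and 2006 to 2388 lower, and 2766 to 3169 changed by at least 2-fold. Restricted to the brightest 60% of probe sets, 6365 of 13063 genes passed (48.7%). Genes with probe sets called in opposite directions were 22 with only the control arrays in the fit and 28 to 57 with 1 array left out. For these the cause was not tested. With the background level of the 6 control arrays (2.89 in place of 3.41) no fold bound could move by 1.5 times, because the levels are too close. The lack of larger moves is therefore no evidence that the bounds are stable.

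Replicate numbers did not pair the arrays: deviations from the group means of same-numbered day 0 and day 8 arrays correlated with r of 0.002, -0.005 and -0.026. With the replicate number as a block 5510 genes passed. Signals under the background level carry no order, so a change of a gene under it in both groups could not be seen.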
